A study of Mus musculus with 2 samples.

Results

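Genes for enzymes that write or erase methyl and acetyl marks on histones, and methyl marks on DNA, were compared between diabetogenic CD4 T cells from 2.5HIP-PLG-treated mice and those from untreated mice. Members were the rows whose symbol begins with Kdm, Kmt, Kat, Hdac, Sirt, Ezh, Dnmt or Tet and a digit, or with Setd, with the Y-linked Kdm5d left out. This gave 80 of 54532 gene rows, of which 71 belong to 14 enzyme classes and 9 are antisense, pseudogene or gene-like rows that carry an enzyme's name. The cells were BDC-2.5 T cells, whose transgenic receptor recognises a beta cell antigen in the non-obese diabetic (NOD) mouse. They had been activated and given intravenously to NOD.scid hosts, which have no T or B cells of their own. The 2.5HIP-PLG mice were injected intravenously with 1.75 mg of nanoparticles bearing the hybrid insulin peptide for this receptor, 1 day after the transfer. The other mice went untreated, and the groups were told apart by their treatment labels. Effector cells positive for CD4 and negative for a Foxp3-GFP reporter were sorted on day 6 from spleen and lymph nodes of 4 mice, pooled into 1 library per group. No value below therefore has a replicate behind it, and none has a p-value.

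Histone methyltransferases add methyl groups to lysines and demethylases of the LSD and JmjC families take them off, while acetyltransferases and deacetylases do the same for acetyl groups. Methylation of H3 lysine 4 goes with active promoters and enhancers, methylation of H3 lysine 27 by the Polycomb enzymes with silent genes, and DNA methylation by the Dnmt enzymes is reversed through oxidation by the Tet enzymes. In T cells these systems are known to help fix helper fates and the lasting gene programmes of memory and exhausted cells.

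Gene counts added up to 22580648 for 2.5HIP-PLG and 26036623 for untreated cells, and each count was divided by its library's total. Of the 80 rows, 70 had a count sum of at least 20 over both libraries and are called measured. A ratio is 2.5HIP-PLG over untreated, and the range after it is its exact 95% interval, which reflects counting error alone. A gene whose ratio reached 1.5 is termed higher, and one whose inverse ratio reached 1.5 lower, provided that the interval also leaves out 1. By this rule 5.15% of all 13902 measured genes were higher and 9.70% lower, the shares to set beside the marker calls below. The sorted cells had the markers of their label, since all 12 CD4 T cell identity genes were measured. They summed to 8547 and 7488 counts per 1000000 (CPM) in the 2.5HIP-PLG and untreated libraries, a ratio of 1.14 (1.13 to 1.15). Of the 12 genes 0 were higher or lower, but 8 intervals lay above 1 and 3 below. The 6 B cell markers summed to 0.620 and 1.15 CPM, with Ms4a1 at 0 in both libraries. The 5 mast cell and basophil markers summed to 17.0 and 3.76 CPM, with 3 of the 4 measured ones higher and Fcer1a at 10 and 0 counts. The 6 neutrophil markers summed to 14.1 and 3.92 CPM, with 2 of 4 measured ones higher. The 6 dendritic cell markers summed to 18.5 and 30.7 CPM, with 1 of 5 measured ones lower. The 5 natural killer cell markers summed to 157 and 645 CPM, mostly from Gzma, which T cells also express, with 1 higher and 3 lower. The 7 myeloid markers summed to 23.3 and 22.4 CPM, with 2 of 6 measured ones higher (Lyz2 2.48, 1.74 to 3.58; Csf1r 2.14, 1.31 to 3.55) and Fcgr3 lower (0.599, 0.362 to 0.971), and without Itgam, the most abundant, their summed ratio was 1.37 (1.16 to 1.63). The 5 erythroid markers summed to 50.7 and 48.4 CPM, with Car1 higher (1.78, 1.42 to 2.25). The part of such cells in the results below was not tested. In bulk samples, fewer cells that express a gene and less RNA per cell cannot be told apart.

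Most of these enzyme genes differed little between the libraries. Of the 70 measured members, 3 were higher (Kdm2b, Hdac7 and Sirt5), 5 were lower (Kmt2d, Kmt2c, Hdac9, Sirt3 and the antisense row Kdm6bos) and 62 were neither. Over all 13902 measured genes 5.15% were higher and 9.70% lower, beside 4.29% and 7.14% of the measured members, so the enzymes as a group were called about as often as other genes. The interval lay above 1 for 19 of the 70 members and below 1 for 24, beside 24.3% and 26.3% of all measured genes. Both parts were larger among the members, the one below 1 the more so. Among genes with 1000 or more counts the numbers were 17 and 19 of 57 members, beside 2421 and 2024 of 7022 genes. Among the 57 members whose counts summed to 1000 or more, 2 were higher and 2 lower, beside 2.71% higher and 2.86% lower among the 7022 genes of that abundance. The ratio lay between 0.8 and 1.25 in 54 of 70 measured members (77.1%) and in 64.5% of all measured genes. Among those with 1000 or more counts the share was 84.2% of members and 82.2% of all genes. The median log2 ratio, with 0.5 counts added, was -0.05 over the members and -0.01 over all measured genes.

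**Figure D1:**
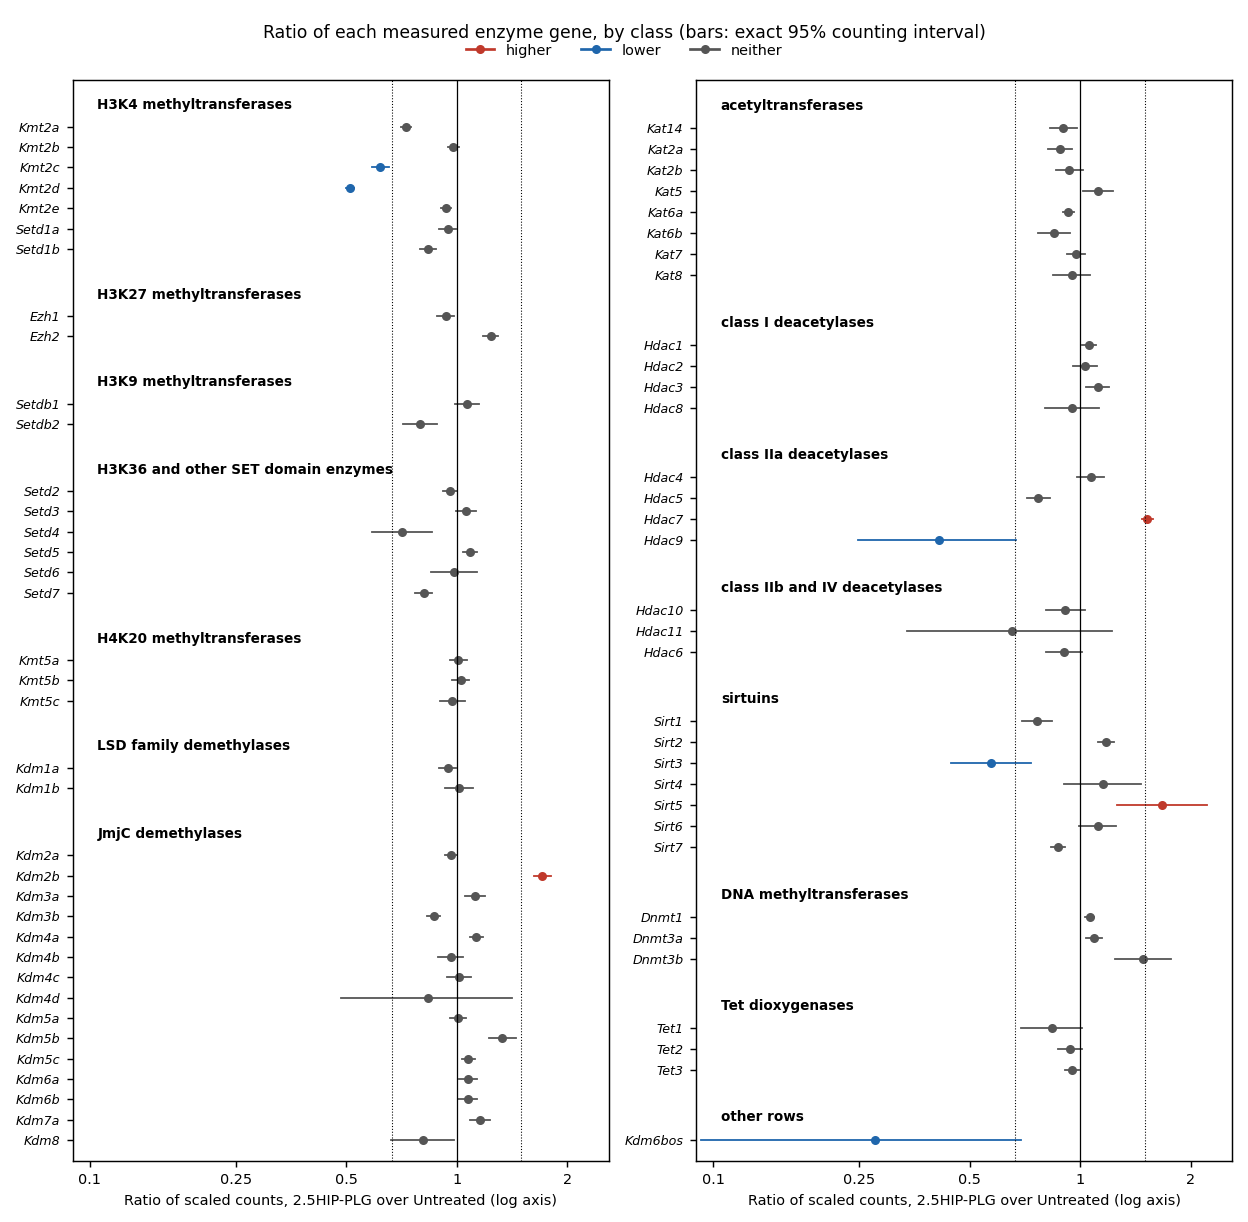
Ratio of scaled counts, 2.5HIP-PLG over untreated (log axis), for each of the 70 measured members by enzyme class. Points are ratios, bars exact 95% counting intervals and colours the call; Kmt2d and Kmt2c stand apart at 0.512 and 0.619 among the H3K4 methyltransferases, and Kdm2b at 1.71 among the JmjC demethylases.

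The H3K4 methyltransferases had the lowest summed ratio of the 14 classes. Their 7 genes summed to 33396 counts (1479 CPM) for 2.5HIP-PLG and 52721 counts (2025 CPM) for untreated cells, a ratio of 0.730 (0.720 to 0.740). Of the 7 genes, 2 were lower, 0 higher and 5 neither, all 7 ratios were below 1, and the median log2 ratio was -0.26, beside 9.70% lower, 5.15% higher and a median of -0.01 over all measured genes. Kmt2d, which with Kmt2c places the single methyl group that marks enhancers, had 7742 counts in the 2.5HIP-PLG library, against 17436 in the untreated one, a ratio of 0.512 (0.498 to 0.526; chromosome 15, 98831669 to 98871204, GRCm38, minus strand). Kmt2c had 2102 and 3914 counts in the same order, a ratio of 0.619 (0.587 to 0.653; chromosome 5, 25271798 to 25498783, minus strand). Both were less abundant in the 2.5HIP-PLG library by more than counting error. Kmt2a, the mixed-lineage leukaemia gene known from memory T helper cells, had 6410 and 10162 counts and a ratio of 0.727 (0.705 to 0.750), below 1 but not past the rule. The other 4 genes stood nearer to 1. Setd1b had 2701 and 3736 counts (0.834, 0.793 to 0.876), and Kmt2e, whose protein has no shown methyltransferase activity, had 6594 and 8122 (0.936, 0.906 to 0.967). Kmt2e shares 972 exon bases with Srpk2 on the other strand (1539 and 1747 counts) and had fractional expected counts, so its value is uncertain. Setd1a, which with Setd1b supplies most trimethylation of H3K4, had 2456 and 3000 counts (0.944, 0.895 to 0.996). Its value is uncertain, because a second gene model on the same strand, Gm49388, shares 3523 exon bases with it and had 0 and 162 counts. Kmt2b had 5391 and 6351 counts (0.979, 0.944 to 1.02), the ratio nearest to 1 in the class.

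Kmt2d weighed on the summed values. It held 4.96% of all member counts in the 2.5HIP-PLG library, against 9.23% in the untreated one. All 80 rows together had a summed ratio of 0.952 (0.945 to 0.958), and without Kmt2d the ratio was 0.996 (0.989 to 1.00). Within the H3K4 class, leaving Kmt2d out gave 0.838 (0.825 to 0.852). Levels between genes can be compared only per length, and on the scale of CPM per kb of annotated exon Kmt2d had 17.2 and 33.6 for 2.5HIP-PLG and untreated cells. On that scale Dnmt1 stood at the top of the members in both libraries (52.3 and 49.3), followed by Hdac1 (50.3 and 47.4), and Hdac9 was at the bottom of the measured members (0.0725 and 0.175).

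Within the H3K4 class, low ratios went with long transcripts. The 3 H3K4 genes with the lowest ratios have the longest annotated transcripts of the class, at 19823 bases for Kmt2d, 16470 for Kmt2a and 14967 for Kmt2c, while the other 4 have 6487 to 8857. The 3 long genes summed to a ratio of 0.595 (0.584 to 0.606) and the other 4 to 0.932 (0.913 to 0.951). The remaining member over 12000 bases, the DNA demethylation gene Tet1 at 14369 bases, had 189 and 260 counts (0.838, 0.691 to 1.01). Shorter members showed no such trend. Member median log2 ratios were -0.02 for 1500 to 3000 bases, -0.05 up to 5000, 0.04 up to 8000 and -0.04 up to 12000. Among the 12 members of 8000 to 12000 bases 0 were called, beside 7.65% higher and 10.8% lower of measured protein-coding genes that long. Among all measured protein-coding genes, 5.11% of which were higher and 7.89% lower, the median log2 ratio was 0.03 for transcripts of up to 1500 bases and -0.20 for the 127 genes over 12000 bases. Of those 127 genes, 2.36% were higher and 17.3% lower. Of the 126 other genes of that length, 11 had a ratio at or below that of Kmt2d, 22 at or below that of Kmt2c and 34 at or below that of Kmt2a. Among the 66 of them with a count sum of at least 2000 the numbers were 0, 4 and 13. The part of transcript length in the ratios of Kmt2a, Kmt2c and Kmt2d was not tested.

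**Figure D2:**
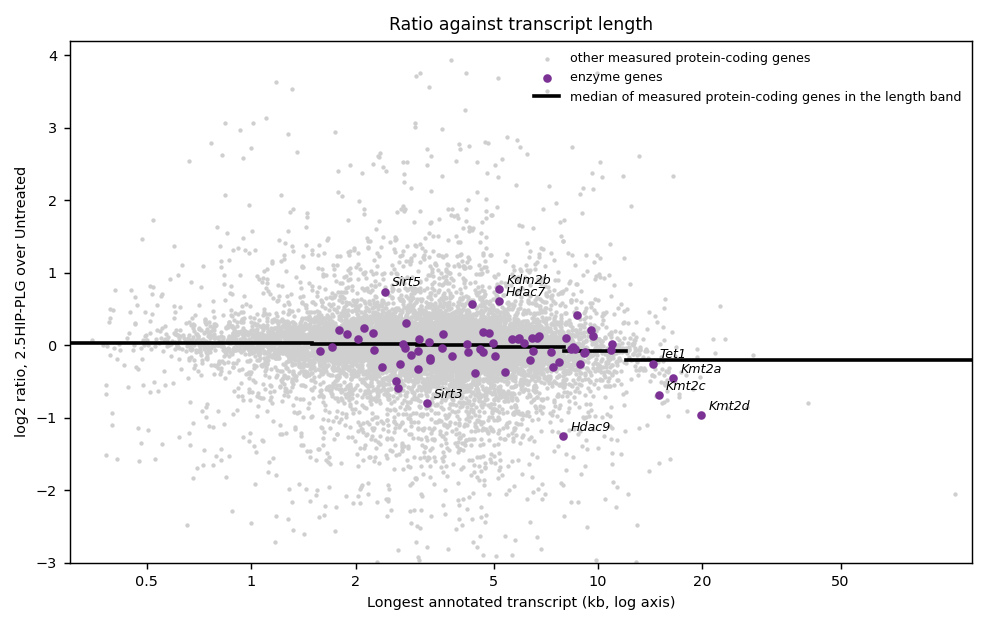
Log2 ratio, 2.5HIP-PLG over untreated, against the longest annotated transcript in kb (log axis), for 11813 measured protein-coding genes. Enzyme genes are marked in colour and black lines give the median of these protein-coding genes per length band, -0.20 above 12000 bases; Kmt2a, Kmt2c and Kmt2d lie at the long end and below that line, and 59 genes fall outside the axes.

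The promoters of Kmt2c and Kmt2d, the lower genes with many counts and a single annotated start each, are printed to show their CpG content, since CXXC proteins such as Kmt2a, Kmt2b, Kdm2a, Kdm2b and Dnmt1 bind unmethylated CpG. Sequences are from RefSeq (GRCm38.p6) and run from 250 bases before to 50 after the start in the direction of the gene, with each CG in capitals. The Kmt2c promoter lies at chr5:25498734-25499033 on the minus strand and holds 56 CG, and the Kmt2d promoter lies at chr15:98871156-98871455 on the minus strand and holds 27.
Kmt2c: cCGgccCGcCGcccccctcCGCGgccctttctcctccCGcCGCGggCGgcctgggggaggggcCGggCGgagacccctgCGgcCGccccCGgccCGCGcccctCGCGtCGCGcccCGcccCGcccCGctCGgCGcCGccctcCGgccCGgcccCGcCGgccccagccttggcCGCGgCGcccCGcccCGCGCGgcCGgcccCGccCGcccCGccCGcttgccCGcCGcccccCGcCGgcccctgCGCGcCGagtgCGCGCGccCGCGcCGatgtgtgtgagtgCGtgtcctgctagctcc
Kmt2d: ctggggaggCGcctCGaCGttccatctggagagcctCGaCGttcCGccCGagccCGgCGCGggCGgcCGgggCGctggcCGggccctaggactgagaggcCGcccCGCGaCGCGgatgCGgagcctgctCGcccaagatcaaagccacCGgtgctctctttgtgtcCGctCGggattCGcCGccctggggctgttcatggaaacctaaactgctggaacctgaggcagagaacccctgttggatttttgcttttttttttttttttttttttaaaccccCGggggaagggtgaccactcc
Of 32851 promoter windows of this length, 94.6% hold at least 1 CG, which reads the same on both strands, and the median is 7. At least 56 were found in 0.195% and at least 27 in 15.5%. The promoter table matched 57 of the 70 measured members, whose 81 windows had a median of 22. The higher genes Kdm2b and Hdac7 have 4 annotated starts each, with 18 to 49 and 5 to 35 CG, and gene counts do not show which start was used. No DNA methylation was measured here.

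Ezh2 held a larger share of the H3K27 methyltransferase counts after 2.5HIP-PLG. Ezh2, the Polycomb enzyme most abundant in dividing cells, had 3592 and 3344 counts in the 2.5HIP-PLG and untreated libraries, a ratio of 1.24 (1.18 to 1.30) that did not reach the rule. Ezh1, its relative in resting cells, had 2339 and 2893 counts (0.932, 0.882 to 0.985). Ezh2 made up 60.6% (59.3 to 61.8) of the pair's counts in the 2.5HIP-PLG library, against 53.6% (52.4 to 54.9) in the untreated one, with exact binomial intervals, and such a share does not depend on scaling. Of the H3K27 demethylases, Kdm6a had 2384 and 2566 counts (1.07, 1.01 to 1.13) and Kdm6b 2011 and 2166 (1.07, 1.01 to 1.14), and the intervals of their shares overlapped between the libraries.

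Of the other methyltransferases, 0 were called, beside 5.15% higher and 9.70% lower over all measured genes. The H3K9 enzymes differed from each other, with Setdb1 at 1301 and 1409 counts (1.06, 0.987 to 1.15) and Setdb2 at 593 and 862 (0.793, 0.713 to 0.882). Of the H4K20 enzymes, Kmt5a, which adds the single methyl group, had 2764 and 3153 counts (1.01, 0.960 to 1.06). Kmt5b and Kmt5c, which add further ones, had 2668 and 3002 counts (1.02, 0.972 to 1.08) and 1161 and 1375 counts (0.974, 0.900 to 1.05). This class stood close to no difference, with a summed ratio of 1.01 (0.977 to 1.04). Setd2, which trimethylates H3K36 behind RNA polymerase, had 3350 and 4026 counts (0.959, 0.916 to 1.00). Among the remaining SET domain genes the lowest ratio was that of Setd4, with 181 and 294 counts (0.710, 0.587 to 0.857), followed by Setd7, an H3K4 monomethyltransferase that also acts on other proteins, with 2263 and 3207 (0.814, 0.771 to 0.859). Setd5 had 4307 and 4565 counts (1.09, 1.04 to 1.13). Setd3, whose enzyme methylates a histidine of actin, had 1819 and 1981 (1.06, 0.993 to 1.13) and Setd6 had 365 and 428 (0.983, 0.853 to 1.13).

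Among the demethylases, Kdm2b stood apart. Kdm2b binds CpG islands and brings a variant Polycomb complex to them. It had 3389 counts in the 2.5HIP-PLG library, against 2287 in the untreated one, a ratio of 1.71 (1.62 to 1.80; chromosome 5, 122870665 to 122989823, minus strand). Its close relative Kdm2a had 4781 and 5711 counts (0.965, 0.929 to 1.00) and was neither. Rnf34, which shares 627 exon bases with Kdm2b on the other strand, had 855 and 866 counts (1.14, 1.03 to 1.25). The antisense A930024E05Rik, with 199 shared bases, was higher at 219 and 158 counts (1.60, 1.30 to 1.97), and without a stated strand setting the reads of overlapping genes cannot be told apart.

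The other 14 JmjC genes were neither, beside 5.15% higher and 9.70% lower over all measured genes. Kdm5b, a demethylase of trimethylated H3K4, had the next highest ratio, with 1137 and 984 counts (1.33, 1.22 to 1.45). Its share of Kdm5a, Kdm5b and Kdm5c counts was 13.4% (12.7 to 14.1) in the 2.5HIP-PLG library, against 10.8% (10.2 to 11.5) in the untreated one. Kdm5a had 2934 and 3356 counts (1.01, 0.959 to 1.06) and Kdm5c 4412 and 4734 (1.07, 1.03 to 1.12). The 3 genes summed to a ratio of 1.08 (1.05 to 1.11). Kdm7a, a demethylase of H3K9 and H3K27, had 1960 and 1958 counts (1.15, 1.08 to 1.23). In the Kdm3 pair, which acts on H3K9, Kdm3a had 1896 and 1949 counts (1.12, 1.05 to 1.20) and Kdm3b 3823 and 5097 (0.865, 0.829 to 0.902), on opposite sides of 1. The Kdm4 enzymes act on H3K9 and H3K36, and Kdm4a had 5012 and 5108 counts (1.13, 1.09 to 1.18), Kdm4b 1146 and 1372 (0.963, 0.890 to 1.04) and Kdm4c 1312 and 1490 (1.02, 0.942 to 1.09). Kdm4d rested on 26 and 36 counts (0.833, 0.483 to 1.42), too few to show a difference of that size. Kdm8, also called Jmjd5, had 176 and 251 (0.809, 0.663 to 0.984). The JmjC class as a whole had a median log2 ratio of 0.10 and a summed ratio of 1.07 (1.06 to 1.09). The flavin-dependent Kdm1a and Kdm1b, which also erase H3K4 methylation, had 2362 and 2884 counts (0.944, 0.894 to 0.997) and 952 and 1080 counts (1.02, 0.931 to 1.11), with a summed ratio of 0.964 (0.920 to 1.01). Kdm1b shares 505 exon bases with Dek on the other strand (6486 and 6280 counts), so its value is uncertain.

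**Figure D3:**
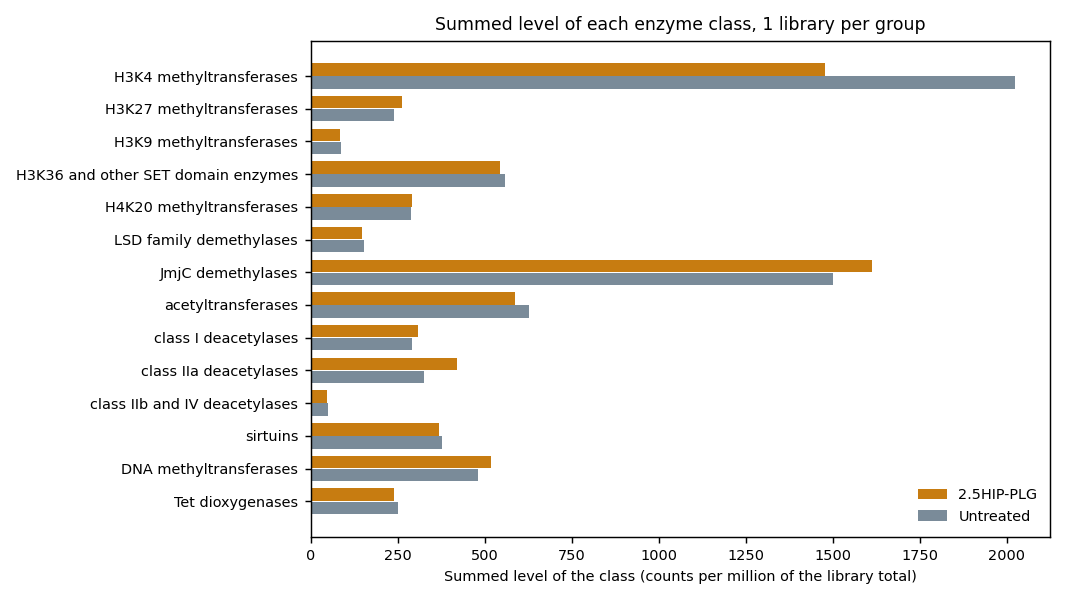
Summed level of each enzyme class in CPM of the library total, for the 2.5HIP-PLG and the untreated library. The H3K4 methyltransferases stand at 1479 and 2025 CPM and the class IIa deacetylases at 419 and 326 CPM; sums depend on transcript length and are compared between libraries only.

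Acetyltransferase genes lay in a narrow band, with ratios of 0.850 to 1.12. Of the 8, 0 were called, beside 5.15% higher and 9.70% lower over all measured genes. Kat6a, the one with the most counts, had 5652 and 7021 (0.928, 0.896 to 0.961), and its relative Kat6b had the lowest ratio, with 672 and 912 (0.850, 0.768 to 0.940). Kat5, the catalytic subunit of the NuA4 complex, had the highest, with 867 and 892 (1.12, 1.02 to 1.23). It shares 426 exon bases with Rnaseh2c on the other strand (798 and 1024 counts; 0.899, 0.818 to 0.987). The expected counts of Kat5 were also not whole, so its value is uncertain. Kat2a and Kat2b, which acetylate H3K9, had 1246 and 1626 counts (0.884, 0.820 to 0.952) and 988 and 1219 counts (0.935, 0.858 to 1.02). Kat7 had 2329 and 2756 counts (0.974, 0.922 to 1.03), the H4K16 enzyme Kat8 had 527 and 641 (0.948, 0.843 to 1.07) and Kat14 had 977 and 1251 (0.901, 0.827 to 0.980). The class summed to a ratio of 0.937 (0.916 to 0.959).

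The class IIa deacetylases parted from each other. These shuttle between nucleus and cytoplasm and bind MEF2 factors, and Hdac7 is known for leaving the nucleus when the T cell receptor is engaged. Hdac7 had 7142 counts in the 2.5HIP-PLG library, against 5405 in the untreated one, a ratio of 1.52 (1.47 to 1.58; chromosome 15, 97792664 to 97844502, minus strand), just past the limit of the rule. Hdac9, scarce in both libraries, had 24 and 67 counts, a ratio of 0.413 (0.248 to 0.667; chromosome 12, 34047580 to 34917095, minus strand). Hdac5 had 1306 and 1955 counts (0.770, 0.718 to 0.827) and Hdac4 986 and 1065 (1.07, 0.978 to 1.17). Hdac7 took 75.5% (74.6 to 76.4) of class IIa counts in the 2.5HIP-PLG library, against 63.6% (62.6 to 64.7) in the untreated one, and Hdac5 took 13.8% (13.1 to 14.5), against 23.0% (22.1 to 23.9). The class summed to a ratio of 1.28 (1.25 to 1.32) with Hdac7 and 0.865 (0.819 to 0.913) without it, and its median log2 ratio was -0.14, on the other side of no difference from the sum.

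The class I deacetylases, catalytic subunits of the main nuclear corepressor complexes, kept near the same proportions. Hdac1 had 3910 and 4254 counts (1.06, 1.01 to 1.11) and Hdac2 1265 and 1414 (1.03, 0.955 to 1.11). Hdac3, the partner of the NCoR corepressors, had 1553 and 1604 (1.12, 1.04 to 1.20) and Hdac8 260 and 315 (0.952, 0.804 to 1.13). Hdac1 made up 56.0% (54.8 to 57.1) of their counts in the 2.5HIP-PLG library, against 56.1% (54.9 to 57.2) in the untreated one. Hdac6, which deacetylates tubulin, had 558 and 711 counts (0.905, 0.809 to 1.01) and Hdac10, a polyamine deacetylase, 458 and 579 (0.912, 0.805 to 1.03). Hdac11 had 17 and 30 counts (0.653, 0.338 to 1.22), too few to show a difference of that size.

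**Figure D4:**
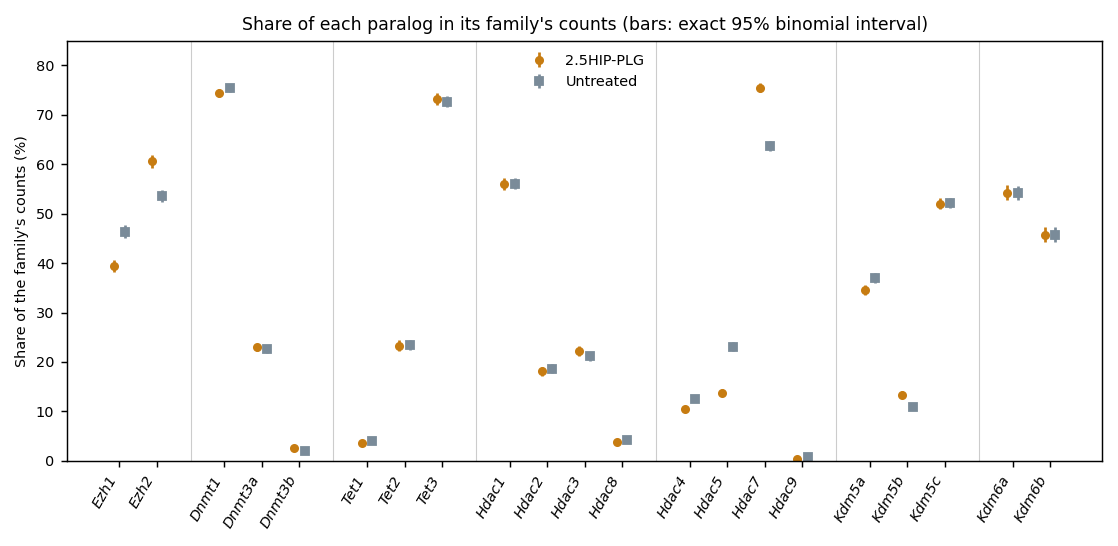
Share of each paralog in the summed counts of its family (%), in the 2.5HIP-PLG and the untreated library, with exact 95% binomial intervals. Hdac7 took 75.5% and 63.6% of class IIa counts and Ezh2 60.6% and 53.6% of Ezh counts, whereas the Tet, class I Hdac and Kdm6 shares had overlapping intervals.

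Of the 7 sirtuins, deacylases that use NAD, 1 was higher, 1 lower and 5 neither, beside 5.15% higher and 9.70% lower over all measured genes. Both calls fell on mitochondrial members with few counts, while the mitochondrial Sirt4 was neither. Sirt5, which removes succinyl and malonyl groups, had 126 counts in the 2.5HIP-PLG library, against 87 in the untreated one, a ratio of 1.67 (1.26 to 2.22; chromosome 13, 43365496 to 43395203, plus strand). Sirt3, the main mitochondrial deacetylase, had 98 and 197 counts, a ratio of 0.574 (0.445 to 0.735; chromosome 7, 140863666 to 140882309, minus strand). Its expected counts were not whole, and on the other strand it shares exon bases with Ric8a (1971 and 2721 counts; 0.835, 0.788 to 0.885) and Psmd13 (2046 and 2289 counts; 1.03, 0.971 to 1.09), so its value is uncertain. Sirt4, also mitochondrial, had 140 and 140 counts (1.15, 0.906 to 1.47). Of the nuclear members, Sirt1 had 783 and 1183 counts (0.763, 0.696 to 0.836), Sirt6 571 and 590 (1.12, 0.993 to 1.25) and the nucleolar Sirt7 3417 and 4527 (0.870, 0.832 to 0.910). Sirt2, mostly cytoplasmic, had 3157 and 3091 (1.18, 1.12 to 1.24). The median log2 ratio of the class was 0.16 and its summed ratio 0.974 (0.946 to 1.00), an interval that includes 1. Without Sirt7, the most abundant sirtuin, the summed ratio was 1.06 (1.02 to 1.11), on the same side as the median.

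All measured Dnmt genes had ratios and intervals above 1. All Tet genes had ratios below 1, but the intervals of Tet1 (0.838, 0.691 to 1.01) and Tet2 included 1. Of these 6 genes 0 were called, beside 5.15% higher and 9.70% lower over all measured genes. Dnmt1, which copies methylation onto new DNA strands, had 8719 and 9466 counts (1.06, 1.03 to 1.09) in the 2.5HIP-PLG and untreated libraries. Dnmt3a, which methylates new sites, had 2686 and 2838 (1.09, 1.03 to 1.15). Dnmt3b had 305 and 237 (1.48, 1.25 to 1.77), with fractional expected counts and a close copy, Dnmt3c, at 9 and 9 counts, so its value is uncertain. Dnmt3b remained scarce beside Dnmt1, with 2.60% (2.32 to 2.91) of Dnmt counts in the 2.5HIP-PLG library, against 1.89% (1.66 to 2.14) in the untreated one. Tet3 had 3935 and 4769 counts (0.951, 0.912 to 0.993) and Tet2, a restraint on T cell expansion, had 1248 and 1533 (0.939, 0.870 to 1.01). Summed, the Dnmt genes had a ratio of 1.08 (1.05 to 1.10) and the Tet genes of 0.944 (0.910 to 0.979).

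Of the 9 antisense, pseudogene and gene-like rows, 1 was measured. Kdm6bos, on the strand opposite Kdm6b, was lower at 6 and 25 counts (0.277, 0.0928 to 0.691; chromosome 11, 69401513 to 69402700, plus strand). It shares 286 exon bases with Kdm6b, its expected counts were not whole, and its value is uncertain. The rows below the count minimum were Dnmt3c, Dnmt3l and 8 of these 9 rows. Dnmt3l, a cofactor of the germ line, was at 0 in both libraries, as were Dnmt3bos, Dnmt3a-ps1, Kat6b-ps1 and Kat6b-ps2. A count of 0 allows up to 0.133 CPM for 2.5HIP-PLG and 0.115 CPM for untreated cells. Dnmt3aos had 1 and 0 counts, Dnmt3l-ps1 0 and 1, Kat2b-ps 4 and 1 and Kdm4dl 7 and 6.

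Genes that work with these enzymes were taken from 8 lists. The 20 Polycomb partners had 2 higher, 0 lower and a median log2 ratio of 0.07, so 10% were higher, beside 5.15% higher and 9.70% lower over all measured genes. Jarid2, which guides the Ezh2 complex to its targets, had 2580 and 1938 counts (1.54, 1.45 to 1.63). Rnf2, the ubiquitin ligase of the other Polycomb complex and of the one that Kdm2b recruits, had 1518 and 1154 (1.52, 1.40 to 1.64), not whole and just past the limit. Bmi1, a partner of Rnf2, had 1020 and 789 (1.49, 1.36 to 1.64) and just missed the rule, but passed it with TMM or median-of-ratios scaling. The core partners of Ezh2, Eed and Suz12, had ratios of 1.06 (1.00 to 1.13) and 1.10 (1.05 to 1.16). Cbx7, which binds the H3K27 mark, lay on the other side without a call, at 884 and 1510 counts (0.675, 0.621 to 0.734).

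COMPASS subunits include some shared by all H3K4 methyltransferases and some particular to certain ones. They had 0 of 12 called, beside 5.15% higher and 9.70% lower over all measured genes, and a median log2 ratio of 0.05. The genes farthest from 1 were Pagr1a at 1.21 (1.00 to 1.47), Dpy30 at 1.20 (1.08 to 1.33) and Bod1l, whose annotated transcript has 10540 bases, at 0.849 (0.806 to 0.894). Of 20 deacetylase complex subunits 1 was lower, the scarce Rcor2 at 21 and 44 counts (0.550, 0.311 to 0.946), with Rcor3 at 0.758 (0.659 to 0.871) and Tbl1x at 1.31 (1.24 to 1.38) next. The 20 acetyltransferases and partners outside the Kat symbols had 0 calls, with Ncoa1 at 1.35 (1.26 to 1.44), Crebbp at 0.814 (0.782 to 0.847) and Jade2 at 1.19 (1.13 to 1.25) farthest from 1.

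The 16 methyltransferases outside the Kmt symbols also had 0 calls, beside 5.15% higher and 9.70% lower over all measured genes. Ash1l, an H3K36 enzyme with a transcript of 11644 bases, had 1288 and 2150 counts (0.691, 0.644 to 0.740), Smyd3 a ratio of 0.703 (0.592 to 0.832) and Smyd5 of 1.29 (1.13 to 1.47). Of 8 genes listed as demethylases outside the Kdm symbols 1 was lower, the nucleolar oxygenase Riox2 with 1241 and 2388 counts (0.599, 0.559 to 0.642), not whole. The list's name is no evidence of demethylase activity, which was not measured. Jmjd6 had a ratio of 0.794 (0.743 to 0.848) and Phf8 of 1.14 (1.08 to 1.21). The 18 DNA methylation partners had 2 lower (11.1%, beside 9.70% of all measured genes) and a median log2 ratio of -0.15. They were Idh2, a mitochondrial source of the 2-oxoglutarate that Tet and JmjC enzymes use, with 545 and 957 counts (0.657, 0.590 to 0.730), and the scarce Tdrd9, with 31 and 64 (0.559, 0.351 to 0.870). Uhrf1, which brings Dnmt1 to newly copied DNA, had 3896 and 3744 counts (1.20, 1.15 to 1.26). The 12 bromodomain readers had 0 calls, with Baz1a at 1.36 (1.31 to 1.42), Atad2 at 1.15 (1.09 to 1.21) and Baz2a at 0.871 (0.842 to 0.900) farthest from 1.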

How the data were processed

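Per the labels' protocols, a Qiagen RNeasy kit gave the RNA and a NuGen mRNA kit the libraries. The submitters' processing notes name STAR, RSEM 1.3.1 and GRCm38. The annotation, filters and strand setting are not stated in the labels, the notes or the table's header. The deposited values are expected counts per gene as the authors estimated them, with no scaling between libraries. In the 2.5HIP-PLG and untreated libraries, 11.1% and 11.8% of rows had fractional values.

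Counts were rounded to whole numbers and divided by the library total. Clopper-Pearson intervals of the conditional binomial, at 95%, were computed in Python 3.11.15 with scipy 1.17.1, numpy 2.4.6 and pandas 2.3.3. No molecular identifiers are described, so intervals and floors (3 counts) reflect counting error, not differences between mice or library preparations. One count was worth 0.0443 CPM for 2.5HIP-PLG and 0.0384 CPM for untreated cells. Calls were made on all 13902 measured genes, and the calculation was tested on simulated counts. The members and lists were chosen with earlier results of these data known. The naming rule took all called members, allowed any other measured member, and took the 3 genes of each partner list with the largest absolute log2 ratio, of which 1 is not reported here; Eed, Suz12, Cbx7 and Uhrf1 were picked after their values were seen. Positions, overlaps and lengths came from GENCODE M21 (GRCm38), which holds all 80 member rows. Exons of 29 of the 70 measured members overlap those of another gene, and not each of these is named above.

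Alternatives were TMM and upper quartile scaling (edgeR 4.0.16 in R 4.3.3), median-of-ratios scaling (DESeq2 1.42.0), the total without the 20 most abundant genes, other count minimums (10, 100, none), a ratio of 2, a 99% interval, a pseudocount of 2, unrounded counts, whole counts only, members without overlapping genes, and sums without the most abundant member. Length bands and single-family sums were added after seeing the data. Figures were drawn with matplotlib 3.10.9.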

Additional observations from a re-analysis of the deposited data

How the results depend on the processing

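Under the 4 other scalings all 70 measured members kept their call, the median of all measured genes ran from -0.03 to 0.00, and the ratio of Hdac7, nearest to the limit, ran from 1.51 to 1.54. A ratio of 2 left 0 members higher and 2 lower, the scarce Hdac9 (24 and 67 counts) and Kdm6bos (6 and 25 counts). Kmt2d (0.512) and Kmt2c (0.619) did not reach that limit. A count minimum of 100 left 3 lower (without Hdac9 and Kdm6bos). Whole expected counts left 2 higher (without Kdm2b) and 2 lower (without Kmt2c, Sirt3 and Kdm6bos). Leaving out members that overlap another gene left 1 higher (without Kdm2b and Hdac7) and 2 lower (without the same 3 genes). The summed ratio of all members was 0.959 with TMM, 0.960 with median-of-ratios and 0.941 with upper quartile scaling. Without its most abundant member the summed ratio was 0.996 over all members, 0.838 for H3K4, 0.932 for H3K27, 0.793 for H3K9, 0.926 for H3K36 and other SET domain enzymes, 1.02 for LSD, 1.09 for JmjC, 0.865 for class IIa, 1.06 for sirtuins and 1.12 for Dnmt. With a count minimum of 100, where Hdac9 drops out, the class IIa median log2 ratio was 0.0943. With whole counts only, fewer genes remained, and the H3K9 and Polycomb partner medians were -0.33 and -0.0557. Polycomb partners then had 1 higher, and 0 at a ratio of 2, but 3 with TMM and median-of-ratios scaling, where Bmi1 passed. Deacetylase complex subunits had 0 lower with a count minimum of 100, a ratio of 2 or a 99% interval. Demethylases outside the Kdm symbols had 0 lower at a ratio of 2 and with whole counts. DNA methylation partners had 1 lower with a count minimum of 100 and 0 at a ratio of 2. Other than the scalings, these alternatives leave fewer genes or set a stricter limit.

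No paired analysis was possible because each group has 1 library, and for the same reason none was left out. Depth limits Hdac11, Kdm4d, Dnmt3c and Kdm6bos, which had fewer than 40 counts in each library.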
